A study of Homo sapiens with 42 samples.

Results

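The transfer RNAs that carry the 3 basic amino acids, arginine, lysine and histidine, were taken from a small RNA count table as the nuclear tRNA rows, at most 500 bases long, whose names give one of those isotypes. They number 69 of the 499 nuclear tRNA rows and of 175946 rows in all: 31 for lysine, 28 for arginine and 10 for histidine. Gene copies of a tRNA can share reads, so rows were summed by anticodon into 8 families, Arg-ACG, Arg-CCG, Arg-CCT, Arg-TCG, Arg-TCT, Lys-CTT, Lys-TTT and His-GTG, and all 8 passed the filter on low counts in every comparison. POLR3G and POLR3GL, which the study knocked out, are paralogues that each fill one place in RNA polymerase III (Pol III). The count table holds 30 libraries, 3 for each of 5 groups in each of 2 arms. The groups A4, A7, E4 and G8 are labelled THP-1, a human monocytic leukaemia line. The group labelled mock is described as HEK293T, a human embryonic kidney line, given a control antisense oligonucleotide at 200 nM. In one arm the small RNA went through Antarctic phosphatase and polynucleotide kinase before library preparation (with PNK), and in the other it did not (without PNK). The sources used here do not say which subunit was targeted in A4, A7, E4 or G8, nor whether each name stands for 1 clone, so the groups are kept apart. The 12 samples labelled con or 3G_ASO are not analysed here. Nothing says whether the libraries of a group came from separate cultures, so each p-value reflects the spread between the libraries alone.

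Pol III transcribes tRNA genes from promoter elements that lie inside the gene. The precursor is trimmed at both ends, spliced where it has an intron, given a CCA tail and heavily modified, and the mature tRNA delivers its amino acid to the ribosome. Arginine is encoded by more codons than lysine or histidine and so is served by several anticodons, several Arg-TCT genes carry introns, and tRNA-His receives an extra guanosine at its 5′ end. Small RNA libraries capture fragments of tRNA along with full-length molecules. Standard ligation needs a 5′ phosphate and a 3′ hydroxyl, which fragments cut by several nucleases lack until their ends are repaired.

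The kept rows of the table held from 9654751 to 13273134 counts in a library left without PNK, and from 5564616 to 7917732 after end repair. The 8 families together drew 17357 to 75916 of these without PNK and 7392 to 24216 after end repair. The smallest value was 24 counts, for Arg-CCG in G8 library 1 with PNK, where counting error alone is 20.4%, while Lys-CTT never fell under 1319. G8 libraries 1 and 2 stood apart from the rest without PNK. Their haematopoietic miRNA, summed over 5 listed genes that have rows, came to 847 and 1317 CPM (counts scaled to a common library size), against 6851 in G8 library 3 and 5442 to 10363 in A4, A7 and E4. With PNK the same sum was 39.2 and 43.5 CPM in those G8 libraries and 130.2 in the other one. The libraries labelled mock held 4792 to 7424 CPM of these miRNAs without PNK, 4 of the 5 genes above 0, a level inside or just below that of the THP-1 groups. Their epithelial miRNA came to 26.7 to 41.6 CPM with MIR205 at 0, inside the 4.78 to 69.0 CPM of the THP-1 groups, so without PNK the markers did not set the group apart from THP-1 as its HEK293T label would. With PNK the mock libraries held 81.2 to 82.6 CPM of the haematopoietic miRNAs, below the 179.5 to 561 of A4, A7 and E4 and inside the G8 range. The group is called by its label only.

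The counts of most families came from a few gene copies. Positions are those of the table (GRCh38), and gene symbols are RefSeq's (GRCh38.p14), which matched 63 of the 69 rows by position. The rows lie on 14 chromosomes, 18 of them on chromosome 6 and 12 on chromosome 1. Rows under 1000 counts over all libraries numbered 26 and held 1.01% of the counts. TRR-CCT2-1, an Arg-CCT gene on the minus strand of chromosome 17 (75034431 to 75034503), had the most counts of any row, 187324. TRR-CCT1-1, which carries the same name in the table and lies 452 bases away (75033906 to 75033978, plus strand), had 4047. Next came the Lys-CTT genes TRK-CTT1-1 on chromosome 14 (58239895 to 58239967), with 129372 counts, and TRK-CTT1-2 on chromosome 15 (78860562 to 78860634), with 95842. The 9 rows named as copies of His-GTG-1 held 10698 to 45277 counts each, TRH-GTG1-7 on chromosome 15 (45198606 to 45198677) the most. TRR-TCT1-1 on chromosome 1 (93847573 to 93847657) led Arg-TCT with 23611. That row is 85 bases long, and the 5 rows over 80 bases all belong to Arg-TCT, whose sixth row, TRR-TCT4-1, is 74 bases long and had 9 counts.

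Without PNK, most counts of these tRNAs were Lys-CTT, His-GTG and Arg-CCT. Their shares of the Arg, Lys and His counts were 37.8 ± 5.99%, 24.6 ± 4.77% and 24.2 ± 3.76% (mean ± SD, n = 15 libraries). Lys-TTT followed at 9.44 ± 1.94%, and the 4 other arginine families held 1.80 ± 0.658% (ACG), 1.35 ± 0.245% (TCG), 0.495 ± 0.148% (TCT) and 0.366 ± 0.0663% (CCG). Dividing each row by its length left the means at 37.7% for Lys-CTT, 24.9% for His-GTG and 24.1% for Arg-CCT. Over all 15 libraries the ranges of Lys-CTT (29.4% to 47.3%), His-GTG (18.01% to 30.2%) and Arg-CCT (19.1% to 31.1%) overlapped. Within each group, however, the lowest Lys-CTT share lay above the highest share of either other family, so Lys-CTT was first in every library. The margin was narrow in A7 (31.10% against 31.06% for Arg-CCT) and G8 (29.45% against 29.37% for His-GTG). His-GTG and Arg-CCT overlapped within A7 and within mock.

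Among the THP-1 groups without PNK, tRNA-His-GTG, tRNA-Arg-ACG and tRNA-Arg-TCG passed the test of any difference among A4, A7, E4 and G8. That is 3 of 8 families, beside 31.3% of the 1461 features tested and 13 of the 40 other nuclear tRNA families. For tRNA-His-GTG, CPM scaled with trimmed mean of M-values (TMM) factors within the arm were 710.3, 656 and 723 for A4, 1763, 1421 and 1370 for A7, 1485, 1458 and 1512 for E4, 732, 880.2 and 1251 for G8, and 1124, 898 and 808 for mock. A4 lay below every library of the other THP-1 groups, and A7 and E4 overlapped (adjusted p = 0.0264). For tRNA-Arg-ACG, CPM were 48.6, 46.6 and 59.6 for A4, 104, 92.2 and 88.6 for A7, 86.2, 105 and 112 for E4, 87.6, 86.5 and 93.4 for G8, and 60.8, 54.5 and 48.5 for mock. The A4 libraries lay below all others of the THP-1 groups and overlapped the libraries labelled mock (adjusted p = 0.0486). For tRNA-Arg-TCG, CPM were 51.1, 54.6 and 60.7 for A4, 73.7, 82.1 and 77.8 for A7, 66.5, 65.6 and 72.5 for E4, 23.3, 26.4 and 49.0 for G8, and 76.1, 84.2 and 63.9 for mock. All G8 libraries lay below the lowest A4 library, G8 library 3 by the least (adjusted p = 0.0472). In bulk libraries such as these, fewer cells of a type and less RNA per cell cannot be told apart, and a tRNA fragment and its full-length parent were counted alike.

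The 5 other families did not pass that test without PNK. For tRNA-Lys-CTT, CPM were 1682, 1630 and 1563 for A4, 1884, 1828 and 1928 for A7, 1695, 1667 and 1711 for E4, 854, 882 and 1780 for G8, and 2269, 2260 and 1786 for mock (adjusted p = 0.289). G8 libraries 1 and 2 were low, while G8 library 3 lay between the A4 and A7 libraries. For tRNA-Arg-TCT, CPM were 13.9, 14.6 and 14.9 for A4, 25.0, 25.8 and 24.2 for A7, 22.1, 21.6 and 21.6 for E4, 21.8, 23.7 and 19.2 for G8, and 23.3, 28.0 and 22.5 for mock (adjusted p = 0.0939). A4 lay below every other library, mock included. tRNA-Arg-CCT ranged from 538 to 1761 CPM over the 12 THP-1 libraries (adjusted p = 0.0726), tRNA-Lys-TTT from 267 to 514 (adjusted p = 0.215), and tRNA-Arg-CCG from 11.4 to 20.1 (adjusted p = 0.471). All 3 A7 libraries lay above the 9 other THP-1 libraries in 5 of 8 families (Arg-CCG, Arg-CCT, Arg-TCG, Arg-TCT and Lys-CTT), where 4.04% of all features tested did so, and 8 of the 40 other tRNA families. A4 lay below the others in 3 of 8 (Arg-ACG, Arg-TCT and His-GTG), beside 3.29% of features and 11 of 40 other tRNA families. G8 lay below the others in 2 of 8 (Arg-TCG and Lys-TTT), beside 13% of features and 0 of 40 other tRNA families. The test itself rested on single libraries. With edgeR, 0 families passed when 1 library of A4 or E4, A7 library 1 or 2, or G8 library 2 was left out. In those runs 10.15% to 26.2% of all features tested passed. Without G8 library 3, 7 families passed, beside 70.4% of features. Without A7 library 3 or G8 library 1, 1 passed, beside 19.7% and 20.7% of features. Without G8 libraries 1 and 2 together 3 passed, beside 28.1%.

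**Figure D1:**
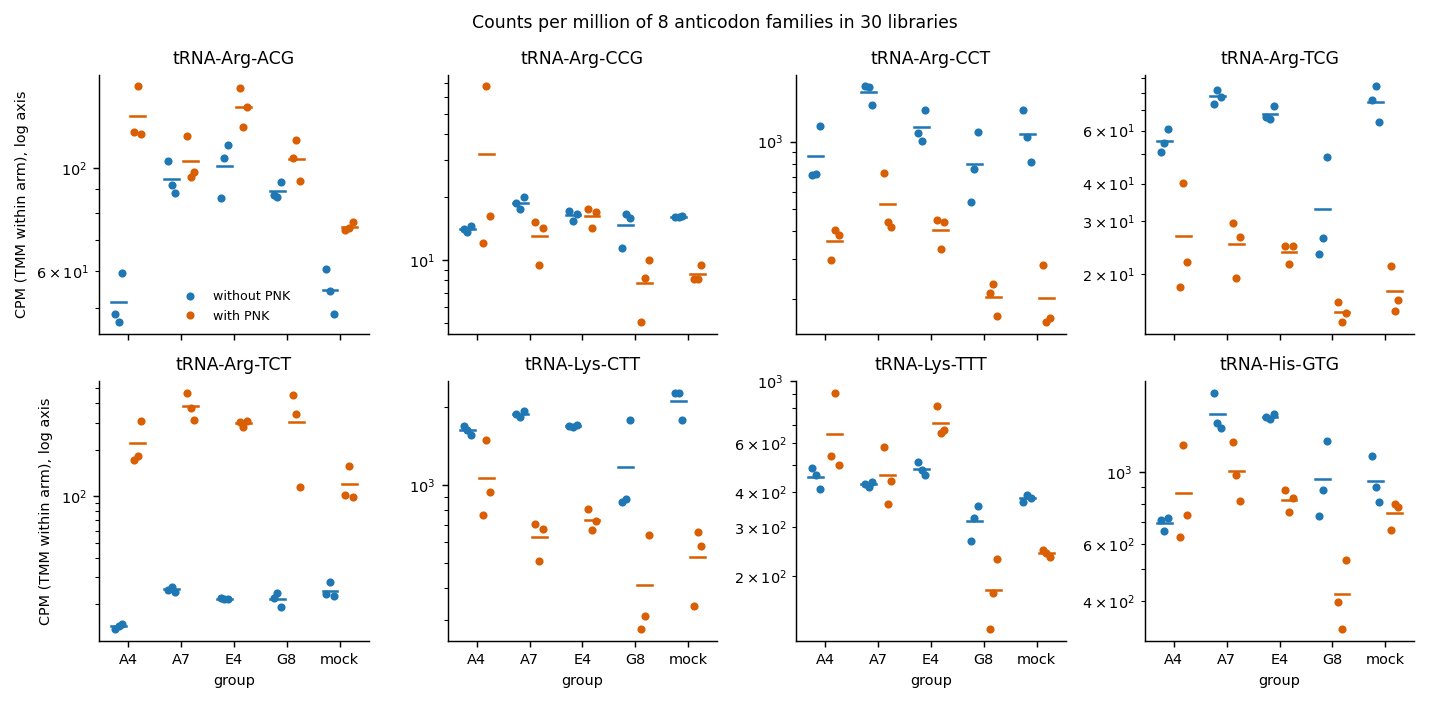
CPM (log axis) of each of the 8 families in 30 libraries, 3 points per group and arm with a bar at the mean. Each arm was scaled on its own, so levels are to be read across groups within an arm and not between arms. With PNK, the 3 G8 libraries sit below the other THP-1 libraries for Lys-TTT, His-GTG, Arg-CCT and Arg-TCG.

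With PNK, 5 of 8 families passed the test among the THP-1 groups: Lys-TTT, Arg-CCT, His-GTG, Lys-CTT and Arg-CCG. Of all 8286 features tested, 22.1% passed, and of the 40 other tRNA families 18 did. For tRNA-Lys-TTT, CPM were 538, 909 and 500.1 for A4, 579.6, 364 and 439 for A7, 814, 653 and 668 for E4, 129.6, 174 and 231 for G8, and 248, 242 and 235 for mock (adjusted p = 0.000874). Every G8 library lay below every A4, A7 and E4 library, and the libraries labelled mock lay at or just above the highest G8 value. For tRNA-Arg-CCT, CPM were 299, 405 and 386 for A4, 725, 439 and 416 for A7, 448, 335 and 438 for E4, 213, 234 and 168 for G8, and 284, 158 and 165 for mock (adjusted p = 0.00640). G8 was again below the other THP-1 groups, and A7 library 1 was the highest. For tRNA-His-GTG, CPM were 629.9, 1219 and 739.6 for A4, 1243, 983 and 812 for A7, 882, 755 and 830.0 for E4, 396, 328 and 533 for G8, and 661, 797 and 782 for mock (adjusted p = 0.0165). Here G8 lay below all other libraries, mock included.

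Lys-CTT and Arg-CCG separated the groups less cleanly with PNK. For tRNA-Lys-CTT, CPM were 767, 1485 and 936 for A4, 705, 508 and 677 for A7, 806, 669 and 727 for E4, 277, 310.0 and 637 for G8, and 339, 657 and 581 for mock (adjusted p = 0.0260). G8 library 3 lay inside the A7 range, and G8 libraries 1 and 2 were the lowest of the 15. For tRNA-Arg-CCG, CPM were 12.02, 67.7 and 16.3 for A4, 15.2, 9.45 and 14.2 for A7, 17.5, 14.3 and 17.0 for E4, 5.05, 8.26 and 10.00 for G8, and 8.12, 8.08 and 9.51 for mock (adjusted p = 0.0339). A4 library 2 stood far above every other library, and that library was also the highest of the 15, relative to the kept counts, in 36 of the 69 member rows, where no other library was highest in more than 10. tRNA-Arg-TCG ranged from 13.8 to 40.1 CPM over the THP-1 libraries (adjusted p = 0.0870), tRNA-Arg-ACG from 94.0 to 149.9 (adjusted p = 0.195) and tRNA-Arg-TCT from 115 to 468 (adjusted p = 0.381), and these did not pass. All 3 G8 libraries lay below the 9 other THP-1 libraries in 4 of 8 families (Arg-CCT, Arg-TCG, His-GTG and Lys-TTT), as did 4.72% of all features and 12 of the 40 other tRNA families. The count of 5 fell to 2 without G8 library 1 or G8 library 2 and to 3 without both, where 17.2%, 16.6% and 14.9% of all features passed. It was also 3 where libraries were scaled by their totals, by the other nuclear tRNA or by miRNA. Under those scalings 17.8%, 47.7% and 72.0% of all features passed. The low miRNA of G8 libraries 1 and 2, given above, went with the lower G8 values for Lys-TTT, Lys-CTT, His-GTG and Arg-CCG but not for Arg-CCT, where G8 library 3 was the lowest, and its part in these values was not tested.

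Against the libraries labelled mock, few of these tRNAs passed the test without PNK. For A4, A7 and E4, 0 of 8 families passed with edgeR, where 0.199%, 0% and 1.06% of the 1509 features passed. At an unadjusted p under 0.05 the counts were 1, 2 and 2, beside 203, 158 and 231 of all features. DESeq2 called 1, 1 and 2 families, beside 1.66%, 1.92% and 6.63% of features. For G8, 3 of 8 passed, beside 24.7% of features (9.28% higher, 15.4% lower) and 9 of 40 other tRNA families. tRNA-Arg-TCG fell by 1.18 on the log2 scale (SE 0.297, adjusted p = 0.0141) and tRNA-Lys-CTT fell by 0.84 (SE 0.282, adjusted p = 0.0420). tRNA-Arg-ACG rose by 0.71 ± 0.241 (SE, adjusted p = 0.0447), and its 3 G8 values, given above, lie above the 3 mock values. These G8 calls depended on single libraries, since 0 families passed without G8 library 1 or mock library 2. Only 1 passed without G8 library 2 or mock library 1, and 1 without G8 libraries 1 and 2. The share of all features fell too, to 11.1% without G8 library 1 and 12.4% without G8 library 2. That share is not given here for the other runs. Without G8 library 2 the Lys-CTT value was -0.49. Scaled by miRNA, which moved the median of all features in G8 by 1.67, 6 families were higher in G8 and 0 lower. Of the 1509 features, 655 were then called higher and 133 lower. Scaled by library totals, 4 families were lower and 0 higher, beside 353 features lower and 39 higher.

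With PNK, edgeR with TMM called families higher in the THP-1 groups than in the libraries labelled mock. The families that rose numbered 3 of 8 for A4, 3 for A7, 4 for E4 and 1 for G8, and none fell. Of the 8870 features, 10.1% passed for A4 (7.27% higher), 4.71% for A7 (3% higher), 7.33% for E4 (4.84% higher) and 5.59% for G8 (2.81% higher). tRNA-Lys-TTT rose in A4 (log2 difference 1.43 ± 0.266, adjusted p = 0.00206), A7 (0.93 ± 0.263, adjusted p = 0.0491) and E4 (1.56 ± 0.267, adjusted p = 0.00154). The 9 values of those groups all exceeded the 3 mock values. tRNA-Arg-TCT rose in A7 (1.68 ± 0.369, adjusted p = 0.0127), E4 (1.31 ± 0.365, adjusted p = 0.0345) and G8 (1.34 ± 0.365, adjusted p = 0.0362). Its CPM with PNK were 171, 184 and 307 for A4, 468, 372 and 313 for A7, 303, 282 and 307 for E4, 454, 343 and 115 for G8, and 101, 158 and 99.6 for mock. G8 libraries 1 and 2 were among the highest and G8 library 3 lay inside the mock range, and without libraries 1 and 2 the G8 difference was -0.06. tRNA-Arg-CCT rose in A7 (1.38 ± 0.271, adjusted p = 0.00647) and E4 (1.01 ± 0.269, adjusted p = 0.0273). tRNA-Arg-ACG rose in A4 (0.79 ± 0.172, adjusted p = 0.00568) and E4 (0.86 ± 0.172, adjusted p = 0.00506), with CPM of 119.5, 149.9 and 119 for A4, 148, 123 and 135 for E4, and 73.4, 74.2 and 76.7 for mock. tRNA-Arg-CCG rose in A4 alone among the 4 tests (1.88 ± 0.453, adjusted p = 0.0114), with A4 library 2 far above the other A4 libraries. Without that library its difference was 0.70 (adjusted p = 0.133), and the call was also lost without mock library 2 (1.83, adjusted p = 0.0526). The calls of Lys-TTT and Arg-ACG in A4 and E4 held with any 1 of the A4, E4 or mock libraries left out, and each other call with PNK was lost without at least 1 library. Leaving out any of the 6 A4 and mock libraries in turn gave 2 to 4 calls in A4. The share of all features in those runs is not given here.

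The 4 comparisons share the mock libraries, so their agreement is not independent. Of the 40 other tRNA families, those that rose numbered 18 for A4, 8 for A7, 16 for E4 and 2 for G8, and their median log2 differences were 0.72, 0.64, 0.78 and -0.05, beside 0.86, 0.56, 0.89 and -0.17 for the 8 families and -0.01, -0.01, -0.01 and 0.04 for all features. When libraries were scaled by those other tRNAs, the counts for A4, A7, E4 and G8 were 1, 0, 1 and 1. With scaling by miRNA the counts were 1, 0, 0 and 1, and by library totals 2, 2, 1 and 1, the G8 family then being tRNA-His-GTG, which was lower (-1.17). DESeq2 also called tRNA-His-GTG lower in G8 (-0.85), beside the rise of Arg-TCT. Those scalings moved the median of all features by -0.67, -0.61, -0.78 and 0.02 (other tRNA), -0.85, -1.01, -1.01 and 0.26 (miRNA), and -0.54, -0.24, -0.34 and -0.38 (totals), in the same order. The counts that follow leave out 1 library each. The share of all features is not given beside them, so they do not single out these tRNAs. Leaving out A7 library 1 or mock library 3 left 0 families in A7. For E4, 2 passed without E4 library 1, E4 library 3 or mock library 3, and for G8, 0 without G8 library 1, G8 library 2 or any 1 mock library, and 2 without G8 library 3, the added one being a fall of tRNA-His-GTG (-1.045).

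**Figure D2:**
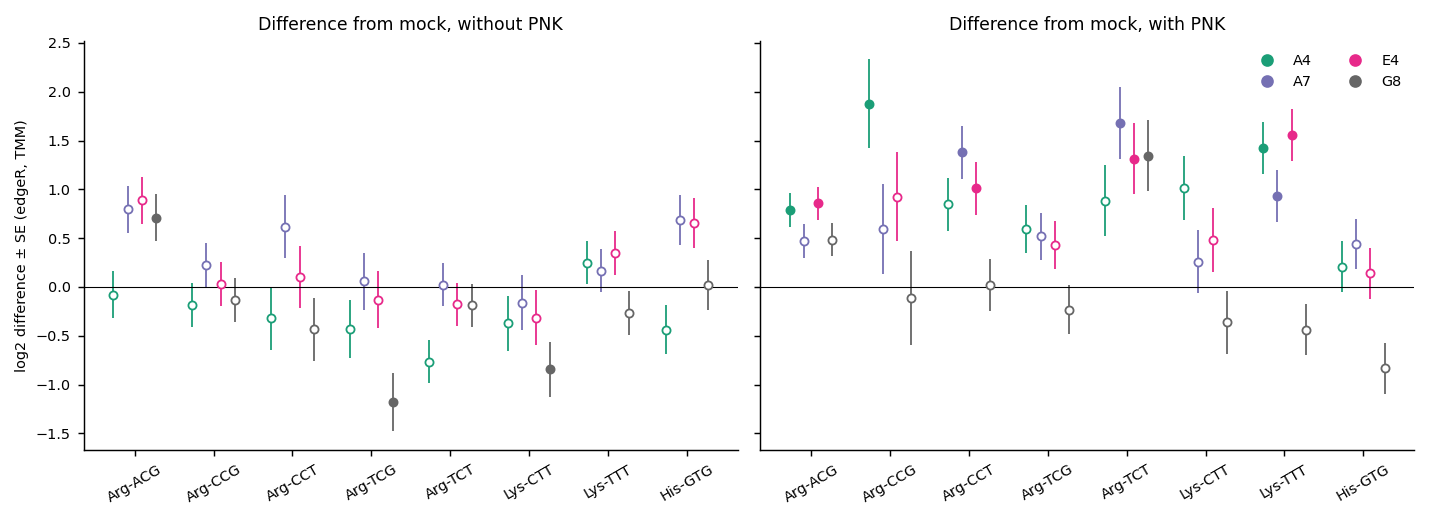
Log2 difference from the libraries labelled mock (edgeR with TMM, bars are the SE) for the 8 families in A4, A7, E4 and G8. Filled points passed an adjusted p of 0.05. The filled points with PNK all lie above 0, and without PNK the 3 filled points are G8's.

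End repair changed the makeup of the tRNA counts. Together, the 8 families held 13.1% to 26.1% of the nuclear tRNA counts of a library without PNK and 1.27% to 4.24% with it. Over the same libraries, tRNA-Glu-CTC went from 26.6 ± 3.84% to 70.2 ± 11.1% of those counts (mean ± SD, n = 15 each). Shares of a library add up to its whole, so a rise of 1 family lowers the others by construction. A share within a library does not depend on how the arms are scaled against each other. All 8 families passed an exact permutation test of the share, with arm labels permuted within each group, 7 of them lower with PNK and 1 higher. Of all 49 anticodon sums tested, 83.7% passed, 73.5% lower and 10.2% higher.

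Arg-CCT had 4.92 ± 1.25% of nuclear tRNA counts without PNK and 0.312 ± 0.0794% with it (mean ± SD, n = 15 libraries per arm). Lys-CTT had 7.66 ± 1.75% without and 0.677 ± 0.331% with, and His-GTG 5.02 ± 1.48% and 0.758 ± 0.279%. For those 3 families the ranges of the arms lay wide apart, for example 2.89% to 6.83% against 0.170% to 0.456% for Arg-CCT. Lys-TTT had 1.92 ± 0.539% and 0.423 ± 0.204%, Arg-ACG 0.360 ± 0.119% and 0.107 ± 0.0269%, Arg-TCG 0.277 ± 0.0782% and 0.0208 ± 0.00621%, and Arg-CCG 0.0735 ± 0.0146% and 0.0151 ± 0.0141%. Each of these 7 falls had a two-sided exact p = 6.25e-07, the smallest the test can give, adjusted p = 1.39e-06. Arg-TCT went the other way, from 0.0976 ± 0.0203% to 0.244 ± 0.0780% (two-sided exact p = 1.875e-06, adjusted p = 3.40e-06). Its ranges overlapped, 0.0572% to 0.131% against 0.0747% to 0.361%. Among the families that fell, Arg-ACG overlapped too, with 0.150% to 0.554% against 0.0541% to 0.154%. So did Arg-CCG, with 0.0395% to 0.0934% against 0.00401% to 0.0644%. As shares of all kept counts rather than of tRNA counts, 6 of 8 passed, 2 higher and 4 lower, Arg-TCT and Arg-ACG being the higher ones. Of all 49 anticodon sums, 37 then passed, 29 higher and 8 lower. With tRNA-Glu-CTC left out of the total, an alternative chosen after seeing the data, 7 passed, 1 higher and 6 lower. Of the 48 sums then tested, 37 passed, 17 higher and 20 lower.

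Within the Arg, Lys and His counts the order of the families changed with the arm. Arg-TCT went from 0.495 ± 0.148% without PNK to 10.8 ± 6.61% with it, and its ranges (0.371% to 0.861% and 4.12% to 28.4%) did not overlap. Per base of row length its mean went from 0.420% to 9.39%. Arg-CCT went from 24.2 ± 3.76% to 12.8 ± 3.21%, again without overlap, and Lys-CTT from 37.8 ± 5.99% to 25.2 ± 6.02%. Lys-TTT stood at 9.44 ± 1.94% and 16.0 ± 4.80%, Arg-ACG at 1.80 ± 0.658% and 4.39 ± 1.24%, and His-GTG, which had the highest mean with PNK, at 24.6 ± 4.77% and 29.5 ± 5.74%. The highest Arg-TCT shares with PNK were those of G8 libraries 1 and 2, 28.4% and 22.5%, against 6.39% in G8 library 3. These shares of the 8 families are given as a description and were not tested.

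**Figure D3:**
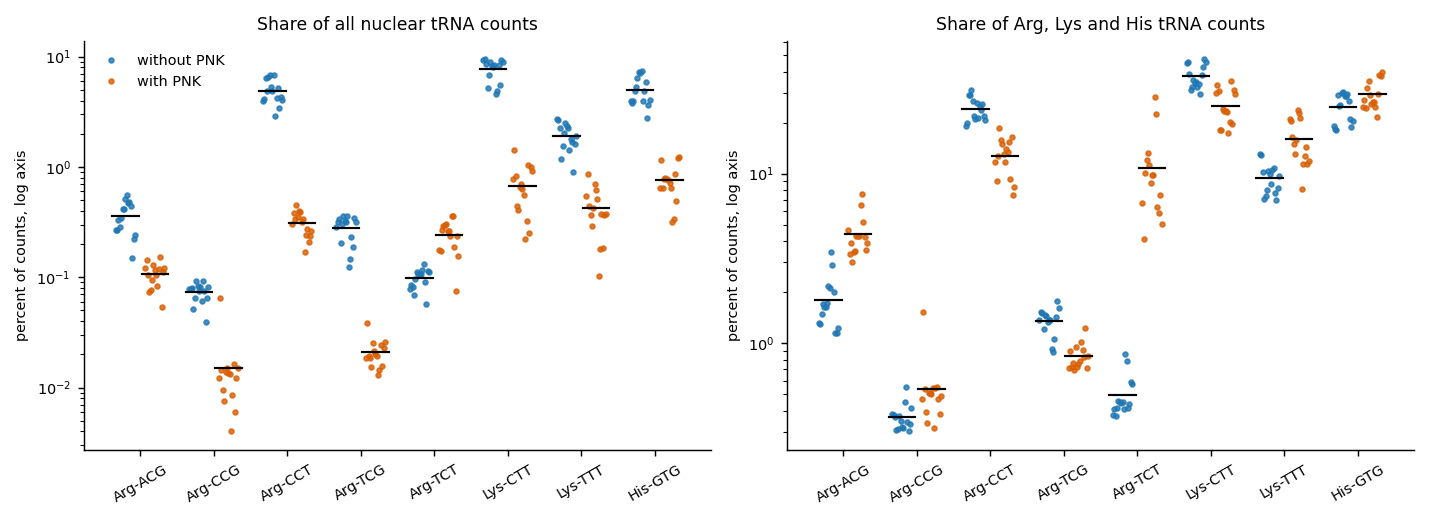
Share of all nuclear tRNA counts (left) and of the Arg, Lys and His counts (right) held by each family, on log axes, 1 point per library (15 per arm) with a bar at the mean. On the left every family is lower with PNK except Arg-TCT. On the right Arg-TCT moves from 0.495% to 10.8% on average.

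The copies that supplied each family also differed between the arms. Of the 30 copies with at least 10% of their family in an arm, 13 had shares whose 15 values without PNK and 15 with PNK did not overlap. A copy could enter through either arm alone, which favours copies that differ between the arms. The 13 of 30 is therefore a description and not a test. Copies of the other tRNA families were not read in this way. TRR-CCT2-1 supplied a median of 90.3% (range 86.4% to 91.7%) of Arg-CCT counts without PNK and 55.6% (range 37.4% to 68.8%) with it. TRR-CCT4-1, on chromosome 7 (139340700 to 139340772), went from 4.14% (range 3.13% to 6.77%) to 36.1% (range 25.9% to 53.4%). So 1 Arg-CCT gene nearly filled the family without PNK, and with PNK a pair of genes shared it. In Lys-CTT, TRK-CTT1-2 went from 31.2% (range 27.4% to 34.8%) to 9.88% (range 5.86% to 14.1%). TRK-CTT1-1, which has the same name in the table, stood at 34.4% (range 30.5% to 43.4%) and 51.2% (range 28.9% to 65.1%), with overlap. In Arg-TCT, TRR-TCT1-1 went from 64.2% (range 56.0% to 71.2%) to 89.4% (range 81.1% to 95.6%), and TRR-TCT3-2, on chromosome 11 (59551294 to 59551379), from 21.8% (range 12.4% to 30.9%) to 5.11% (range 0.834% to 8.12%). Most Arg-TCT counts thus lay on 1 gene's row in both arms, the more so with PNK.

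Arg-ACG showed a change of leading copy. TRR-ACG1-1, on chromosome 6 (26328140 to 26328212), supplied 45.7% (range 30.1% to 51.3%) without PNK and 18.3% (range 12.9% to 24.2%) with it, while TRR-ACG2-1, on chromosome 3 (45688999 to 45689071), supplied 25.1% (range 22.1% to 29.7%) and 60.8% (range 49.4% to 71.4%). In Lys-TTT, TRK-TTT3-2 on chromosome 1 (204507030 to 204507102) went from 14.004% (range 12.1% to 18.1%) to 30.5% (range 19.4% to 44.4%), and TRK-TTT3-3 on chromosome 6 (28951029 to 28951101) from 16.0% (range 13.9% to 20.1%) to 10.5% (range 6.40% to 12.4%). Some copies of His-GTG-1 differed too. TRH-GTG1-3 went from 16.8% (range 9.23% to 24.6%) to 8.23% (range 6.54% to 9.21%). TRH-GTG1-5 went from 4.23% (range 2.54% to 9.18%) to 13.2% (range 10.99% to 15.3%). TRH-GTG1-6 went from 4.88% (range 2.33% to 9.55%) to 13.1% (range 10.6% to 16.1%). The other copies of His-GTG-1 overlapped between the arms. Among them, TRH-GTG1-7 ranged from 14.3% to 26.5% without PNK and 12.5% to 20.6% with it. TRH-GTG1-8 ranged from 10.6% to 29.5% and 12.4% to 17.6%. In Arg-TCG, TRR-TCG1-1 on chromosome 15 (89335073 to 89335145) kept close shares, 71.1% (range 63.0% to 82.2%) and 70.3% (range 59.9% to 80.6%). The sources used here do not state how reads that fit several copies were placed, so a share of a copy with near-identical copies elsewhere is uncertain. The test of end repair taken on the most abundant copy of each family, rather than on the sum, gave 8 calls, 2 higher and 6 lower, the share of Arg-ACG then being higher with PNK. Over all 49 anticodons, 38 then passed, 13 higher and 25 lower.

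**Figure D4:**
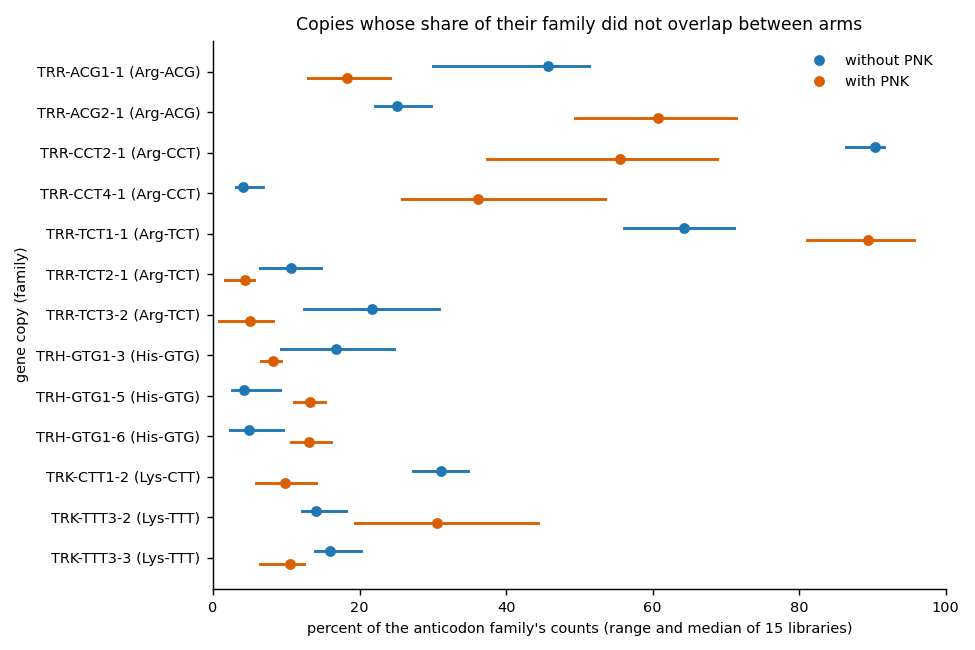
Share of its anticodon family's counts (percent) held by each of 13 copies whose arms did not overlap, among the 30 copies with at least 10% of their family in an arm. Points are medians and lines the range of 15 libraries. TRR-CCT2-1 spans 86.4% to 91.7% without PNK and 37.4% to 68.8% with it.

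Between arms, the direction of a level rests on the scaling. With TMM over all features, 7 of 8 families were called lower with PNK, as 39 of the 40 other tRNA families were, where 91.7% of the 11008 features were called, 13.2% of all being lower, and the median feature was 3.30 higher on the log2 scale. Under TMM, Arg-CCT fell by 5.68 (SE 0.216), Arg-TCG by 5.42, Lys-CTT by 5.32, His-GTG by 4.46, Arg-CCG by 4.15, Lys-TTT by 3.99 and Arg-ACG by 3.41, and the value for Arg-TCT was -0.37 (SE 0.184, adjusted p = 0.0537). Other scalings moved the median of all features by 1.87 (DESeq2 factors), 2.82 (library totals), 2.12 (other nuclear tRNA) and 6.61 (miRNA). With DESeq2 factors or the other tRNAs, 7 families were lower and Arg-TCT higher, with library totals 4 were lower and 2 higher, and with miRNA all 8 were higher. Arg-TCT was the highest under each of the 5 scalings and Arg-CCT the lowest. A change of scaling shifts all families nearly alike, so this order across scalings is not separate evidence.

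**Figure D5:**
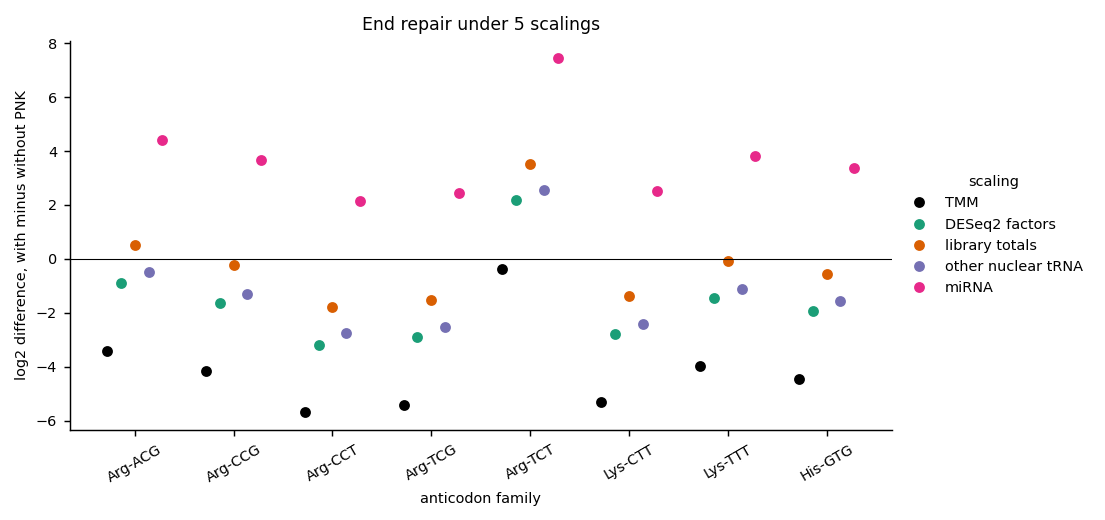
Log2 difference with minus without PNK for each family, averaged over the 5 groups, under 5 ways of scaling the libraries. Points shift together with the scaling, and Arg-TCT is the highest and Arg-CCT the lowest under each.

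Whether the THP-1 groups differed from each other in their response to PNK was tested with the interaction of group and arm. By edgeR, 0 of 8 families passed, where 0.26% of the 10367 features did, 1 passed at an unadjusted p under 0.05 (Arg-CCG, with an adjusted p of 0.479 by edgeR), and DESeq2 called 0. The adjusted p of the others ran from 0.591 (Arg-ACG) to 0.839 (Arg-CCT). A group difference seen in one arm and not in the other is therefore not shown to differ between arms.

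Other Pol III transcripts were read in the same fits. The list held 35 rows of Y RNA, vault RNA, 7SL, 7SK, RMRP, RPPH1, U6, U6atac and 5S rRNA, 17 of them 5S rRNA copies that share reads. Among the THP-1 groups, 6 of 34 tested rows passed without PNK, where 31.3% of all features did, and 29 of 35 with it, where 22.1% did, all 17 5S copies among the latter. Against the libraries labelled mock with PNK, 24 rows rose for A4, including all 17 5S copies, 2 for A7, 3 for E4 and 6 for G8, and none fell. Of all features, 7.27% rose for A4, 3% for A7, 4.84% for E4 and 2.81% for G8. Without PNK, 0 rows passed in A4 and A7, 1 was lower in E4, and in G8 2 were higher and 2 lower.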

How the data were processed

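Small RNA was taken from the labelled cell lines, treated or not with phosphatase and kinase, and sequenced as NEBNext small RNA libraries, per the labels' protocols. Per the submitters' processing notes, Trim Galore, FastQC, Bowtie2 2.3.5.1, SAMtools 1.9, deepTools 3.2.1 and bedtools 2.28.0 were used with GRCh38. The deposited table holds raw read counts per annotated row, and the sources used here do not state how reads fitting several rows were placed or whether strand was used. Of 175946 rows, 85565 that did not overlap were kept. Nuclear tRNA rows were summed by anticodon into 53 sums, 8 of them for arginine, lysine and histidine, which left 85119 features.

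The main test was edgeR 4.0.16 (quasi-likelihood, TMM factors, filterByExpr, R 4.3.3) on all features, with Benjamini-Hochberg adjustment at 0.05. The alternative tool was DESeq2 1.42.0. Shares were tested with an exact two-sided permutation test over 3200000 arrangements of the arm labels within groups, adjusted over 49 anticodon sums. Both scripts were tested on simulated data first. The text names all 8 families, whatever their values, and the copies with the most counts. The 10% limit, set for groups of copies that share a name's first number, was applied to single copies, and those described by arm, with TRR-CCT1-1, were picked after their values were seen. The members and lists were chosen with earlier results of these data known. Replicate numbers were not taken as pairs in the main tests. Alternatives were other scalings, tools, filters and row choices, and leaving out libraries. No sequences are printed, since no table used here holds them.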

Additional observations from a re-analysis of the deposited data

How the results depend on the processing

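Values are counts of the 8 families called, unless a log2 value is named, and the cause of each change was not tested. The share of all features called moved with the setting too. It is given for some of the settings, here or above, and counts without it do not single out these tRNAs. Without PNK, DESeq2 called 1 in A4, 1 in A7 and 2 in E4 against the libraries labelled mock, where edgeR called 0. For G8 against them without PNK (3 called), scaling by miRNA gave 6, no filter on low counts 0, the most abundant copy 1, and leaving out G8 libraries 1 and 2 gave 1. Of all features, 52.2% passed with miRNA factors, 0.692% with no filter and 24.6% on the most abundant copy, beside 24.7% in the main fit. With PNK, A4 (3) went to 1 with factors from other tRNA, 1 with miRNA and 5 with DESeq2, and A7 (3) to 0 with both of those factors. E4 (4) went to 1 with library totals, 1 with other tRNA, 0 with miRNA and 2 with the most abundant copy. G8 (1) went to 2 with DESeq2, every deposited row or the most abundant copy, the added call each time being a fall, and to 0 without G8 libraries 1 and 2. Among the THP-1 groups, the 5 calls with PNK went to 3 with totals, other tRNA, miRNA, the most abundant copy or without those G8 libraries, and the 3 without PNK to 6 with totals and 0 with no filter or every row.

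Leaving out 1 library at a time gave 2 to 4 calls for A4, 0 to 3 for A7, 2 to 3 for E4 and 0 to 2 for G8 against mock with PNK, and 0 to 4 for G8 without it. Among the THP-1 groups it gave 2 to 6 with PNK and 0 to 7 without, and for end repair 7 to 8. Same-numbered libraries deviated together in all 3 pairs only for A4 with E4 without PNK among the group pairs. Between the arms they did so for A4, E4 and G8 (r from 0.17 to 0.56) but not for A7 or mock. The sources used here do not say what a shared number means, and the main tests did not pair same-numbered libraries. The replicate block, which treats them as pairs, gave 0 among the THP-1 groups without PNK and 4 with it. Against mock with PNK that block gave 5 for A4, 2 for A7, 4 for E4 and 0 for G8, and for G8 without PNK 1, with 8 for end repair, all lower, Arg-TCT being -0.42 (adjusted p = 0.0132).

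Some signs turned. For end repair with miRNA factors the log2 values were 4.40 (Arg-ACG), 3.66 (Arg-CCG), 2.15 (Arg-CCT), 2.44 (Arg-TCG), 7.43 (Arg-TCT), 3.37 (His-GTG), 2.53 (Lys-CTT) and 3.82 (Lys-TTT). With library totals they were 0.50 for Arg-ACG and 3.52 for Arg-TCT. Arg-TCT was also 2.17 with DESeq2 or its size factors, 2.56 with other tRNA, 0.57 with no filter and 0.24 on the most abundant copy. Against mock with miRNA factors, Arg-ACG was -0.049 in A4 and -0.16 in E4, and Lys-TTT -0.13 in A7 with PNK, while Arg-TCG was 0.38 and Lys-CTT 0.72 in G8 without PNK. Without G8 libraries 1 and 2, Arg-TCT in G8 with PNK was -0.060. As a share of all kept counts, Arg-ACG differed by 0.00279 and Lys-TTT by 0.000935 percentage points, and on the most abundant copy Arg-ACG by 0.0636. Depth was lowest for Arg-CCG, with 24 to 316 counts per library with PNK.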
